A study of Mus musculus with 2 samples.

Results

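The genes described here build and guard the endoplasmic reticulum (ER) as a folding compartment: its stress sensors, its chaperones, its degradation machinery, and the pores and targeting particles that bring new proteins into it. They were named in a list of 40 genes, and a gene was represented by a probe set annotated to that gene alone, the brightest by its mean over both arrays where there were several. Of the 40 genes, 38 had such a probe set, out of 18194 genes on the array. All 38 passed the floor on low signal, a log2 signal of 3.85, which is the median over the whole table and which 11404 genes reached on at least 1 array. Sec61g, a translocon subunit, and Srp54a, a subunit of the signal recognition particle, were named only by probe sets that carry several gene symbols and were left out of the counts.

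The study compared splenic dendritic cells (DCs), which take up antigen and prime T cells, with and without CD8a on their surface. C57BL/6 mice received B16 melanoma cells that produce Flt3L, the growth factor of DCs, into the back, and spleens were taken 10 to 12 days later. After magnetic enrichment, cells were sorted as CD3-B220-CD8a+CD11c+ (CD8+ DCs) or CD3-B220-CD8a-CD11c+ (CD8- DCs), and both were left unstimulated. Both populations thus came from animals that carried a tumour producing Flt3L, and the sources used here give neither the age nor the number of mice. Each population was measured on 1 Affymetrix array, so there are no replicates, no test was made, and a difference cannot be told apart from variation between mice, sorts or hybridisations. Values are log2 signals, and differences are CD8+ minus CD8-. The only spread that the arrays hold themselves is that between probe sets of the same gene, where the difference had a pooled SD of 0.30 over 5183 genes.

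Secreted and membrane proteins enter the ER through the Sec61 pore, fold there with the help of chaperones, and are returned to the cytosol for destruction when folding fails. When unfolded proteins build up, the sensors IRE1 (gene Ern1), PERK (Eif2ak3) and ATF6 start the unfolded protein response. IRE1 splices the messenger RNA of Xbp1, PERK favours translation of Atf4, and cleaved ATF6 enters the nucleus, and together these factors raise the transcription of chaperone and degradation genes. The IRE1 and XBP1 branch is known for its activity in CD8+ DCs and for its place in plasma cells.

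Genes of the ER folding machinery were higher in CD8+ DCs by modest folds, and the genes of the sensors did not follow them. Of the 38 measured genes, 32 were higher in CD8+ DCs, against 52.6% of all measured genes, and 6 were higher in CD8- DCs, against 44.8%. Their median difference was 0.41, against 0.03 over all measured genes, and it was 0.27 with each gene's measured probe set closest to 0, a choice added after the data were seen. Differences beyond the 0.30 spread between probe sets were found for 22 of the 38 (57.9%) in favour of CD8+ DCs, against 21.1% of all measured genes, and for 2 (5.26%) in favour of CD8- DCs, against 21.5%. No gene of the list reached 2-fold in either direction, a size that 3.55% of all measured genes reached in favour of CD8+ DCs and 5.97% in favour of CD8- DCs. At 1.5-fold (a log2 difference of 0.585), 12 of the 38 (31.6%) were higher in CD8+ DCs, against 8.49% of all measured genes. In the other direction 1 gene of the 38 (2.63%) passed 1.5-fold, against 11.5%. The genes of the list were mostly bright, with a median signal of 9.41 in CD8+ and 9.01 in CD8- DCs. Among the 6854 genes that reached the 75th percentile of the table, 9.63% were past 1.5-fold in favour of CD8+ DCs, and 12 of the 37 list genes that reached it were. In whole populations of cells, fewer cells that express a gene and less RNA per cell cannot be told apart.

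**Figure D1:**
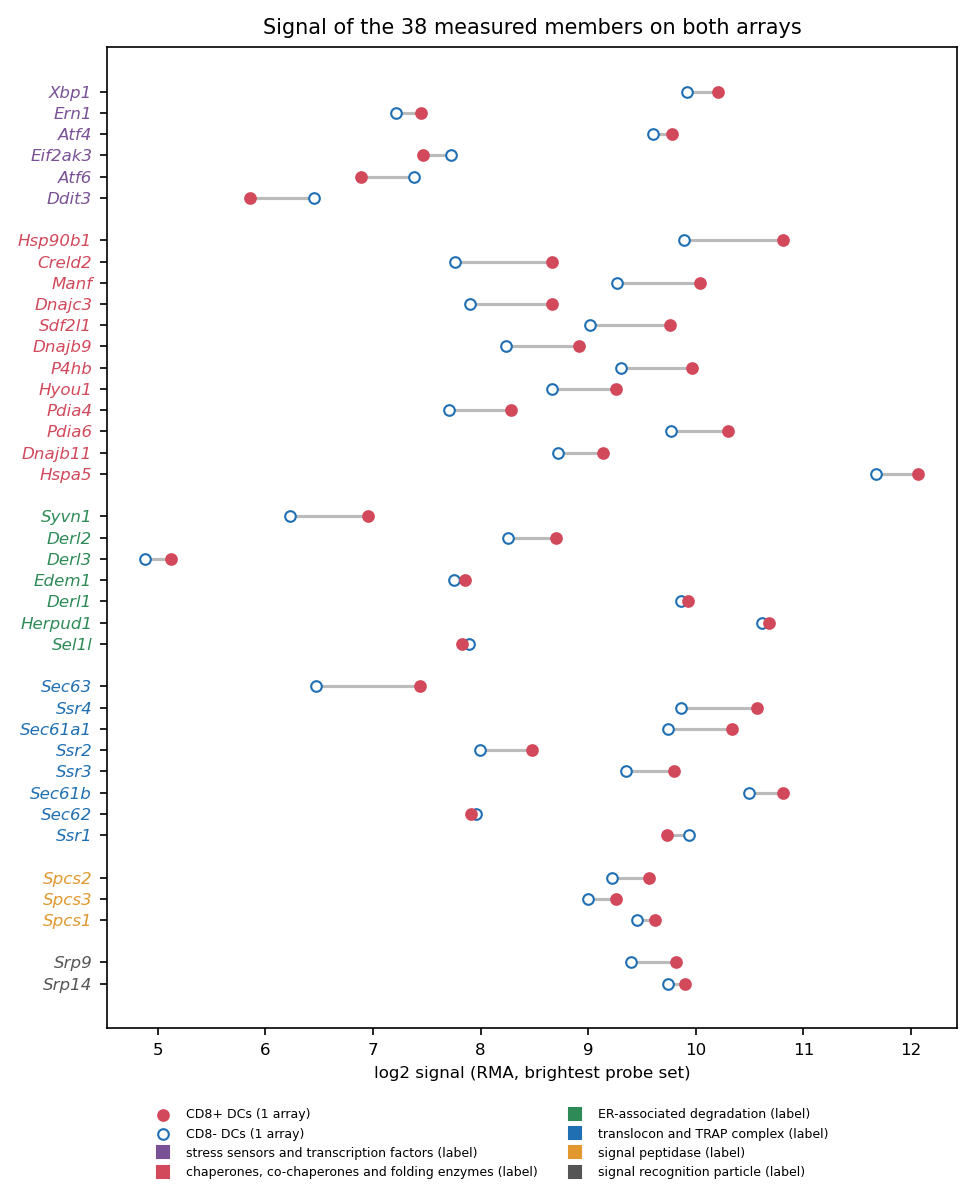
Log2 signal (x axis) of the brightest probe set of each of the 38 measured genes (y axis, coloured by role) on the CD8+ array (filled points) and the CD8- array (open points), with no error bar because each population had 1 array. The filled point lies to the right of the open point for 32 genes; levels of different genes are not comparable, since probe sets differ in brightness.

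The chaperones and folding enzymes had the highest median of the role groups. All 12 genes were higher in CD8+ DCs (52.6% of all measured genes were), with differences between 0.40 and 0.91 and a median of 0.67. Of the 12, 8 passed 1.5-fold, against 8.49% of all measured genes. All 22 measured probe sets of the 12 genes were higher in CD8+ DCs, between 0.37 and 0.92. Each of these differences exceeded the 0.30 spread between probe sets, which holds no variation between mice, sorts or hybridisations. Hsp90b1, which encodes the ER chaperone GRP94 that folds integrins and Toll-like receptors, had a signal of 10.81 in CD8+ and 9.89 in CD8- DCs, and was thus 1.88-fold higher. The second probe set gave 0.92, and 95.9% of all measured genes had a lower difference. Creld2, which encodes an ER-resident protein induced by stress, stood at 8.67 and 7.77, a 1.87-fold difference. Manf, which encodes a secreted factor retained in the ER by its partner BiP, stood at 10.04 and 9.26, a 1.71-fold difference. These were the largest differences of the group.

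The BiP gene and its co-chaperones shared the direction with smaller and larger sizes. Hspa5, which encodes BiP, the main Hsp70 chaperone of the ER, which also holds the stress sensors inactive, was at 12.07 in CD8+ and 11.67 in CD8- DCs, a difference of 0.40. Its other probe sets gave 0.42 and 0.65, so the brightest gave the smallest value. Among the partners that set the ATPase cycle of BiP, Dnajc3 (p58IPK) stood at 8.67 and 7.90, with all 5 probe sets measured and between 0.41 and 0.76. Dnajb9 (ERdj4) stood at 8.92 and 8.23, a 1.61-fold difference. Dnajb11 (ERdj3) stood at 9.14 and 8.72, a difference of 0.42. Sdf2l1, which binds ERdj3 and keeps clients from aggregating, was 1.67-fold higher, at 9.76 and 9.02. Hyou1, the large Hsp70-like exchange factor of BiP, was at 9.26 and 8.67 and lay just past the threshold at 1.51-fold, while its other probe sets differed by 0.82 and 0.85.

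Protein disulfide isomerases, which make and reshuffle disulfide bonds, were also all higher in CD8+ DCs. P4hb, the founding member of the family, was at 9.96 in CD8+ and 9.31 in CD8- DCs, a 1.58-fold difference from its only probe set. Pdia4 was at 8.28 and 7.70 and lay just under the threshold at 1.49-fold. Pdia6, which also tempers IRE1 signalling, was at 10.30 and 9.77, a difference of 0.54, and its dim second probe set differed by 0.37.

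**Figure D2:**
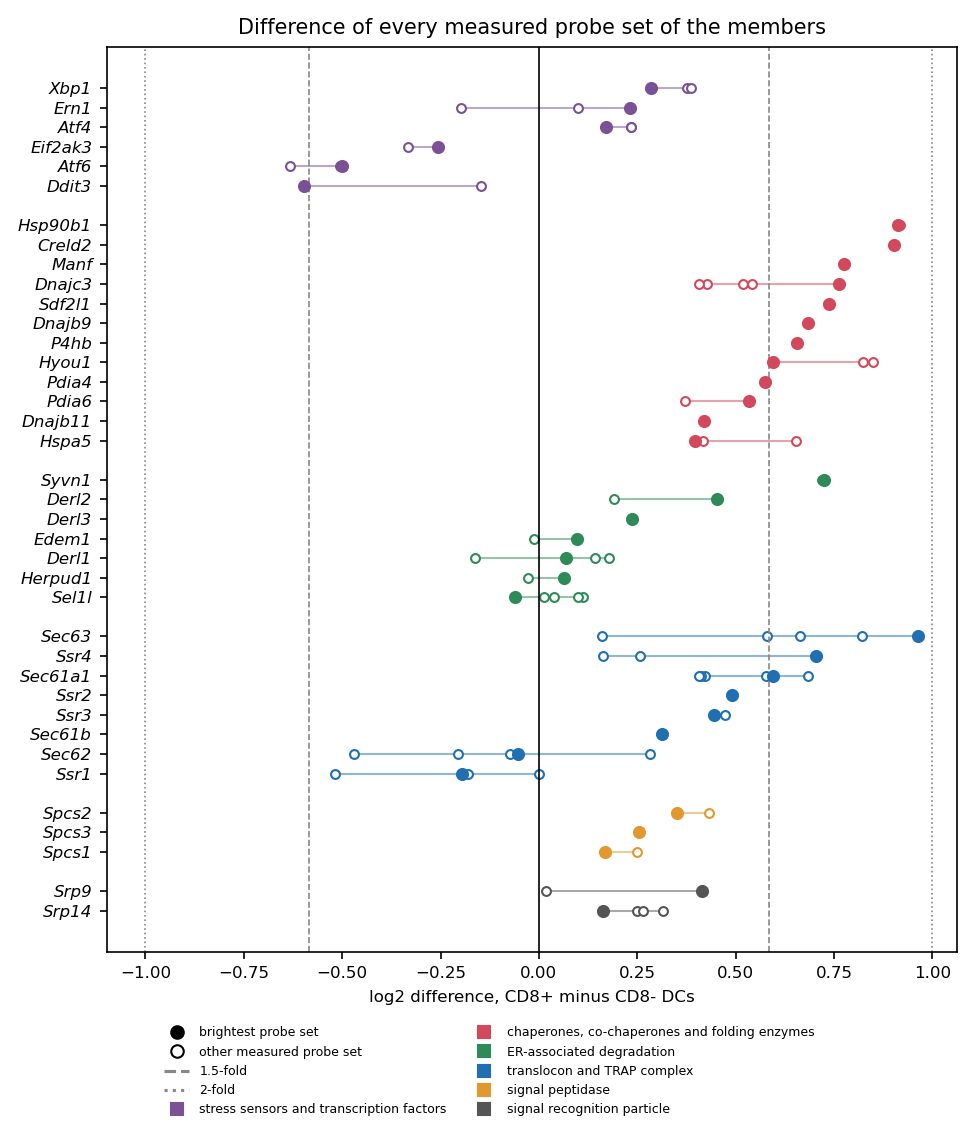
Log2 difference, CD8+ minus CD8- DCs (x axis), of every measured probe set of the 38 genes (y axis), with filled points for the brightest probe set, open points for the others, dashed lines at 1.5-fold and dotted lines at 2-fold. All chaperone points lie between 0.37 and 0.92, whereas the points of Ern1, Herpud1, Edem1, Sel1l, Derl1 and Sec62 lie on both sides of 0.

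Because chaperone genes are known targets of ATF6 and XBP1 through short promoter elements, the RefSeq promoter windows (GRCm38.p6, 250 bases before to 50 bases after the annotated start) were searched on both strands. A window was listed for 33 of the 40 genes. Atf6, Derl1, Hyou1, Manf, Sec61a1, Spcs3 and Ssr2 had none and were not searched. The ER stress element, CCAAT and CCACG with any 9 bases between them, was found in 7 of the 33 genes (21.2%), and in 37 of all 27025 genes with a window (0.137%), or 0.119% of the 32851 windows. These 7 were 5 chaperone genes and 2 degradation genes. The shorter variant, ATTGG and CCACG with any 1 base between them, turns the CCAAT part around and shares the CCACG part. It was found in 2 of the 33 genes (6.06%), Herpud1 and Dnajb11, and in 0.0444% of all genes with a window, or 0.0365% of all windows. The XBP1 element TGACGTGG was found in none of the 33, and in 0.714% of all genes with a window, or 0.676% of all windows. At so low a share, its absence from 33 genes says little. The genes were listed for their place in this pathway, so the share describes the list and says nothing of these arrays. A match of letters is not a measured site. The stretches with the longer element are shown 5′ to 3′ on the strand of the gene, with the match in capitals, because this element is the best described link from the sensors to the chaperone genes.
Hspa5: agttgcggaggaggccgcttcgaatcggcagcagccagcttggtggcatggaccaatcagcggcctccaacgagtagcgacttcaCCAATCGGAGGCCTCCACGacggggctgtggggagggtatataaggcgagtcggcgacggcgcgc
Hsp90b1: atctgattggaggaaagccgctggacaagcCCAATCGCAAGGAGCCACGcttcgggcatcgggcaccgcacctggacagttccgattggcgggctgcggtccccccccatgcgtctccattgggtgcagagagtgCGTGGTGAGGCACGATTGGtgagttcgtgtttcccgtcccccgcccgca
Pdia6: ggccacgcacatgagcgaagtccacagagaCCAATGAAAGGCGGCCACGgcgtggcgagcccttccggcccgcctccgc
Dnajc3: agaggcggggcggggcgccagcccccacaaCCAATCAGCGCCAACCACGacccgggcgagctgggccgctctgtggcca
Creld2: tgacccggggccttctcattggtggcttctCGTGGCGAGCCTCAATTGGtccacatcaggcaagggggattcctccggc
Syvn1: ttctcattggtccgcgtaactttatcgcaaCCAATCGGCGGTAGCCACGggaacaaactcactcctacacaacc
Derl3: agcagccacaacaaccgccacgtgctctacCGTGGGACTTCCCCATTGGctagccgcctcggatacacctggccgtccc

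These stretches lie at chr2:34771940-34772089 (plus strand, Hspa5), chr10:86705503-86705686 (minus strand, Hsp90b1), chr12:17266461-17266539 (plus, Pdia6), chr14:118937797-118937875 (plus, Dnajc3), chr15:88819490-88819568 (plus, Creld2), chr19:6046502-6046575 (plus, Syvn1) and chr10:75893212-75893290 (plus, Derl3). All lie upstream of the annotated start of their gene. The match began 65 bases before the start in Hspa5, 98 in Pdia6, 105 in Dnajc3 and 44 in Syvn1. It read on the opposite strand in Creld2, 126 bases before the start, and in Derl3, 156 bases before it. Hsp90b1 held the element on both strands, 212 and 107 bases before the start.

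All 7 genes with the element were higher in CD8+ DCs, against 52.6% of all measured genes. Of these 7, 5 were chaperone genes, and all 12 chaperone genes of the list were higher in CD8+ DCs. The median of the 7 was 0.72, over a range from 0.24 (Derl3) to 0.91 (Hsp90b1). The 24 measured genes with a window and without this element had a median of 0.30, and 19 of them were higher in CD8+ DCs. Within the chaperones the ranges overlapped widely. The 5 chaperone genes with the element had a median of 0.76, and the 5 with a window and without it a median of 0.66, over 0.42 to 0.74. The Herpud1 promoter, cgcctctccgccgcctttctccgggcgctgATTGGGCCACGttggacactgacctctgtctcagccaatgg, at chr8:94386347-94386417 on the plus strand, held the shorter variant 52 bases before the start. Herpud1 stood at 10.68 in CD8+ and 10.62 in CD8- DCs, and Dnajb11, the other gene of the list with this variant, differed by 0.42. Whether either element bears on the differences was not tested.

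The sensors and their transcription factors were split, with 3 genes higher on each side and a median of -0.04. Over all measured genes, 52.6% were higher in CD8+ and 44.8% in CD8- DCs. In the IRE1 branch, Xbp1 was slightly higher in CD8+ DCs, while the probe sets of Ern1 disagreed in sign. Xbp1 was at 10.21 in CD8+ and 9.92 in CD8- DCs, a 1.22-fold difference, and all 4 of its probe sets had that sign, between 0.28 and 0.39. The values do not separate spliced from unspliced Xbp1. Ern1 was at 7.44 and 7.21, but its 3 measured probe sets ranged from -0.20 to 0.23 and gave no common sign. Atf4, the translationally controlled factor of the PERK branch, stood at 9.77 and 9.60, a difference of 0.17.

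The other sensors and CHOP were higher in CD8- DCs. Eif2ak3, which encodes PERK, was at 7.47 in CD8+ and 7.72 in CD8- DCs, and both its measured probe sets had that sign, at -0.26 and -0.33. Atf6 was at 6.89 and 7.39, and its 3 probe sets lay between -0.63 and -0.50, all beyond the 0.30 spread between probe sets. Ddit3, which encodes CHOP, a factor that promotes cell death under lasting stress, was at 5.85 and 6.45. It was the only gene of the list past 1.5-fold in favour of CD8- DCs, at 1.51-fold, and its other probe set differed by -0.15. Ddit3 was under 1.5-fold when all its probe sets were averaged or a trend of the difference on signal was subtracted.

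Genes of ER-associated degradation, the route that takes misfolded proteins back to the cytosol, differed less than the chaperones, apart from the ligase gene Syvn1 and, by a smaller amount, Derl2. Their median difference was 0.10 over 7 genes, and 6 were higher in CD8+ DCs, against 52.6% of all measured genes. Syvn1, which encodes HRD1, the membrane ubiquitin ligase of this route, was at 6.96 in CD8+ and 6.23 in CD8- DCs, and its probe sets both gave 0.72, a 1.65-fold difference. Sel1l, the obligate partner that holds HRD1 in its complex, was at 7.83 and 7.89, with 5 probe sets between -0.06 and 0.11. Derl2, a derlin of the retrotranslocation channel, was at 8.70 and 8.25, with probe sets at 0.45 and 0.19. The derlin gene Derl1 stood at 9.93 and 9.86, with probe sets on both sides of 0, from -0.16 to 0.18. Derl3, the derlin best known from secretory cells, was dim at 5.12 and 4.89. The mannosidase-like gene Edem1, which marks glycoproteins for disposal, was at 7.85 and 7.75. Herpud1, which helps assemble the ligase complex, had probe sets at 0.06 and -0.03.

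**Figure D3:**
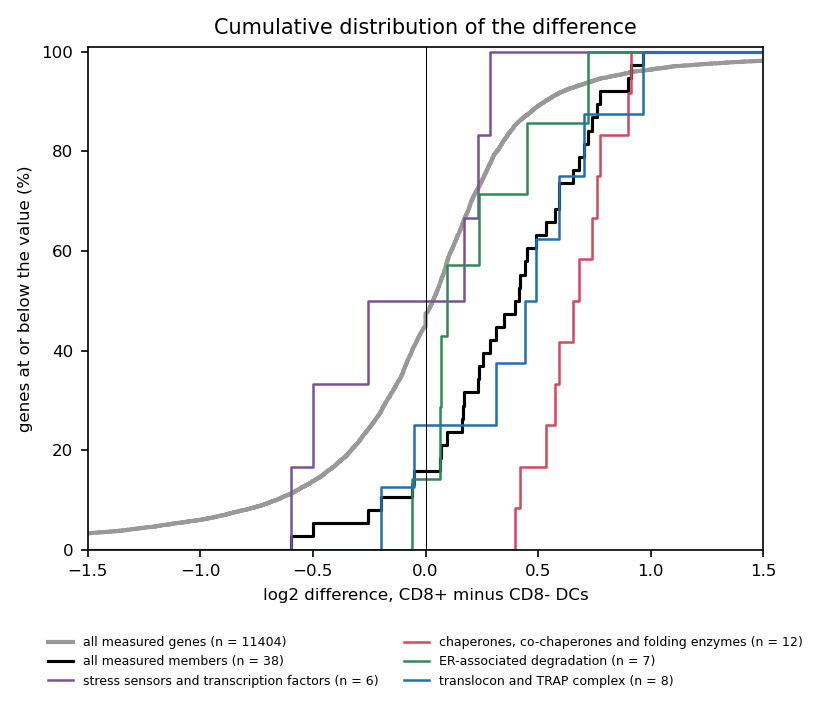
Percent of genes (y axis) at or below each log2 difference, CD8+ minus CD8- DCs (x axis, shown from -1.5 to 1.5), for all 11404 measured genes, the 38 measured genes of the list and 4 of its role groups. The chaperone curve starts at 0.40, a value that 85.2% of all measured genes lie below, and the curve of the sensors and transcription factors runs on both sides of 0.

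The pore genes were higher in CD8+ DCs with exceptions that sit in the same complexes. Of 8 measured genes of the translocon and of TRAP, the complex that helps signal sequences into the pore, 6 were higher in CD8+ DCs. The share over all measured genes was 52.6%. Of the 8, 3 passed 1.5-fold, against 8.49% of all measured genes, and the median of the 8 was 0.47. That median was 0.24 with the probe set closest to 0. Sec63, the J-domain protein that couples BiP to the pore, had the largest difference of the list, at 7.44 in CD8+ and 6.47 in CD8- DCs or 1.95-fold. Its 5 probe sets all had that sign, but they ranged from 0.16 to 0.96. Sec62, which works beside Sec63 in the same auxiliary complex, was at 7.91 and 7.96, with probe sets from -0.47 to 0.28. Sec61a1, the pore-forming subunit, was at 10.34 and 9.74 (1.51-fold), and all 6 of its probe sets lay between 0.41 and 0.69. The small subunit gene Sec61b stood at 10.81 and 10.49, a difference of 0.31.

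The TRAP subunits were not alike. Ssr4 was at 10.56 in CD8+ and 9.86 in CD8- DCs, a 1.63-fold difference, yet its 2 dimmer probe sets differed by only 0.16 and 0.26. Ssr2 (8.48 and 7.99) and Ssr3 (9.79 and 9.35) differed by 0.49 and 0.44. Ssr1 went the other way, at 9.74 and 9.93, and none of its 4 measured probe sets was higher in CD8+ DCs.

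The signal peptidase and targeting genes differed by small amounts in the same direction. Of the signal peptidase accessory subunits, which belong to the enzyme that clips signal sequences, Spcs2 was at 9.57 in CD8+ and 9.22 in CD8- DCs, and Spcs1 at 9.62 and 9.45. Spcs3 was at 9.25 in CD8+ DCs and differed by 0.25. These differences of 0.17 to 0.35 lay near or below the spread between probe sets of a gene. The proteins encoded by Srp9 and Srp14 form the Alu domain of the signal recognition particle, which slows translation during targeting. Srp14 was at 9.90 and 9.74, with 4 probe sets between 0.16 and 0.32. Srp9 was at 9.81 and 9.40, and its probe sets differed by 0.41 and 0.02.

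The list was set beside other genes of the same pathways, in lists chosen with earlier results of these data known. Of 107 measured genes in 8 such lists, 79 (73.8%) were higher in CD8+ DCs, with a median of 0.20. Over all measured genes the share was 52.6% and the median 0.03, to be set beside each list below. The 18 genes of glycoprotein folding and disulfide formation came closest to the chaperones, since all 18 were higher in CD8+ DCs, with a median of 0.38. Among them Pdia5, a further disulfide isomerase, was 5.06-fold higher in CD8+ DCs, at 9.81 and 7.47, by its only probe set. Erp44 (9.62 and 8.71) and Pdia3 (11.89 and 11.08), named after their values were seen, had the next largest differences, 1.88-fold and 1.75-fold. Others of this list differed less, such as Txndc5 (1.44-fold), Erp29 (1.16-fold), Dnajc10 (1.15-fold) and Txndc11 (1.09-fold). Of 10 oligosaccharyltransferase genes, which attach glycans as chains enter the ER, 9 were higher in CD8+ DCs, with a median of 0.37. The 14 other targeting and translocation genes had a median of 0.24. The 19 other degradation genes had a median of 0.14, and 13 of them (68.4%) were higher in CD8+ DCs.

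The list of the integrated stress response, which holds kinases related to PERK as well as genes downstream of them, was split. Of 17 measured, 7 were higher in CD8+ and 9 in CD8- DCs, with a median of -0.03, and 6 were past 1.5-fold in favour of CD8- DCs (11.5% of all measured genes were) and 2 in favour of CD8+ DCs (against 8.49%). The 3 kinase genes, named after their values were seen, differed by 0.36 (Eif2ak1), -0.03 (Eif2ak2) and 0.52 (Eif2ak4). Ddit4, an inhibitor of the growth kinase mTORC1, was at 5.67 in CD8+ and 10.09 in CD8- DCs, a 21.3-fold difference by its only probe set. Atf3, a stress-induced transcription factor, was 2.70-fold higher in CD8- DCs (8.74 and 10.17). Nupr1, a small stress-induced chromatin protein gene, was below the floor in CD8+ DCs and at 5.16 in CD8- DCs, at least 2.49-fold higher there. Chac1, a glutathione-degrading enzyme gene and a target of ATF4, went the other way, at 5.99 and 4.72. Of 8 genes of ATF6 processing and related membrane factors, 5 (62.5%) were higher in CD8+ DCs, against 52.6% of all measured genes. Their median was 0.19, and none reached 2-fold. Mbtps1 and Mbtps2, the proteases that cleave ATF6 and were named after their values were seen, differed by -0.03 and -0.01. Only 4 of 8 transcripts reported as cut by IRE1 in mouse cells were measured, with a median of -0.20, and none reached 1.5-fold.

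**Figure D4:**
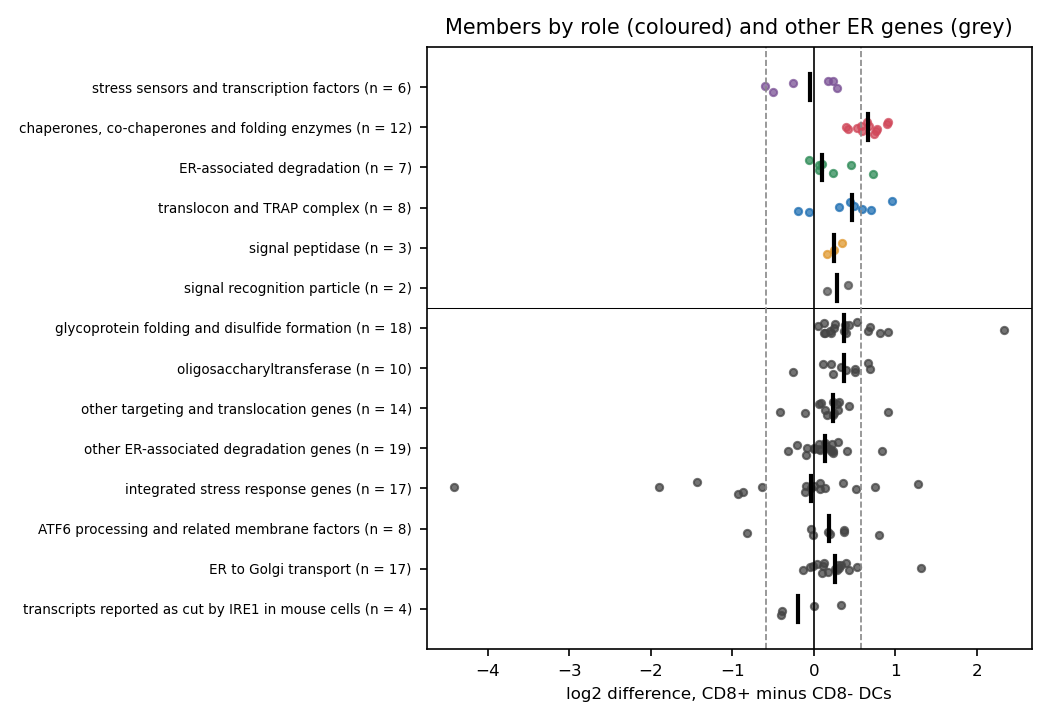
Log2 difference, CD8+ minus CD8- DCs (x axis), of each measured gene (points) in the role groups of the list (coloured) and in other lists of the same pathways (grey), with a black bar at the median of each list and dashed lines at 1.5-fold. The chaperone points lie together to the right of 0, and the integrated stress response genes spread from -4.41 to 1.27.

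The sorted populations carried the markers of their labels. All 6 measured CD8+ DC markers were higher in CD8+ DCs and all 5 measured CD8- DC markers in CD8- DCs. Cd8a, at 11.29 and 5.15, encodes the protein that set the 2 populations apart in the sort. Itgax, which encodes CD11c, for which both were sorted, was at 9.80 in CD8+ and 10.69 in CD8- DCs, a 1.85-fold difference. Of 6 conventional DC markers, 3 were higher in CD8+ and 3 in CD8- DCs. Markers outside the sort, named after their values were seen, were Xcr1 at 10.88 and 8.45 and Sirpa at 4.49 and 8.69. Plasma cells are rich in ER proteins. Of the 6 plasma cell markers with a probe set, Jchain, Sdc1, Mzb1 and Tnfrsf17 were below the floor on both arrays, Prdm1 was at 3.08 (below the floor) in CD8+ and 4.53 in CD8- DCs, and Ighm was at 9.83 and 9.93. The summed linear signal of the 6 was 951 in CD8+ and 1029 in CD8- DCs, nearly all of it from Ighm, and 42.9 and 54.4 without Ighm. Only the brightest probe set of Ighm entered the sum. The 5 measured probe sets of Ighm differed by -0.10 to 0.59, so the direction of Ighm depended on the probe set. The sum over 8 plasmacytoid DC markers was 605 and 596, although Ccr9 was higher in CD8+ DCs (8.03 and 5.94) and Tcf4 in CD8- DCs (5.47 and 7.55). The sum over 7 red pulp macrophage markers was 217 and 477, with Spic and Cd5l below the floor on both arrays. Adgre1 was at 4.63 in CD8+ and 8.22 in CD8- DCs, and C1qa and C1qb reached the floor only in CD8- DCs, at 5.30 and 5.41. Vcam1 (5.52 and 4.66) and Hmox1 (6.80 and 5.65) were higher in CD8+ DCs. The sum over 5 B cell markers was 96.1 and 162, with Cd79a, Pax5 and Cr2 below the floor on both. Cd79b was at 3.28 (below the floor) and 6.59, and Ms4a1 at 5.74 and 4.99. The part of the macrophage and B cell markers in the differences given here was not tested.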

How the data were processed

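The deposited table holds log2 signals of 45101 probe sets, made by the authors with RMA per the submitters' processing notes. This method removes background, normalises arrays to a common distribution and summarises probes. Its version, and which arrays it normalised jointly, are not given in the sources read. Such normalisation hides a shift shared by most transcripts. Sorted values of the arrays differed by at most 0.109.

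Probe sets were named from the platform annotation, updated by gene identifier to RefSeq (GRCm38.p6). Of them, 34958 had 1 symbol, 932 had several and 9211 were unnamed here. The table gives no depth, and the number of arrays limits the precision.

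The log2 difference was computed per gene. Genes past 1.5-fold, the sensors, and genes with disagreeing probe sets were to be named, with 1 to 3 others per role; all measured members are given. In other lists, genes past 2-fold were named. The members and lists were chosen with earlier results of these data known. The planned comparison of protein ends was not run, since no protein table was used here. Alternatives were array centring, a lowess trend (span 0.3), other filters, averaged probe sets and exclusion of cross-hybridising probe sets. Python 3.11.15, numpy 2.4.6, pandas 2.3.3 and statsmodels 0.14.6 were used, tested on simulated data.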

Additional observations from a re-analysis of the deposited data

How the results depend on the processing

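A shift of a median was called small if it was below the spread between probe sets divided by the square root of the number of genes. Centring the arrays, subtracting a lowess trend, changing the filter and dropping probe sets that can cross-hybridise gave small shifts. This held for the median of the list and of each role group. Averaging all probe sets of a gene lowered the median of the 38 genes from 0.41 to 0.35, which was past that limit. Taking each gene's measured probe set closest to 0, an alternative added after the data were seen, lowered it to 0.27 and that of the translocon group to 0.24. The cause was not tested. The chaperone median stayed between 0.62 and 0.71 over these 7 alternatives. The count past 1.5-fold in favour of CD8+ DCs was 8 to 12, and that in favour of CD8- DCs (Ddit3) became 0 with the lowess trend, with averaged probe sets and with the probe set closest to 0. With 1.5-fold in place of 2-fold, the counts of 0 became 12 and 1. Restricting the promoter search to the 250 bases before the start left 1 gene with the shorter element. Sel1l changed sign with averaged probe sets, and Sel1l, Edem1 and Herpud1 did so with the probe set closest to 0. No paired analysis was possible because each population had 1 array.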

Other observations

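Genes of the next step, transport from the ER to the Golgi, were mostly slightly higher in CD8+ DCs. Of 17 measured, 14 (82.4%) were higher there, against 52.6% of all measured genes, with a median of 0.26 against 0.03. Sec24d, which encodes a cargo-selecting subunit of the COPII coat, was the gene of this list past 2-fold, at 7.32 in CD8+ and 6.00 in CD8- DCs (2.49-fold, 1 probe set). The paralogs, named after their values were seen, stood at 6.88 and 6.45 (Sec24a), 7.24 and 7.36 (Sec24b) and 8.16 and 7.77 (Sec24c).

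Outside the list, 30 genes had the longer ER stress element in a promoter window, and 9 of them reached the floor on at least 1 array. Of the 9, 8 were higher in CD8+ DCs, against 52.6% of all measured genes, and the median of the 9 was 0.26. Among the 9, and named after their values were seen, were Calr (10.44 in CD8+ and 9.78 in CD8- DCs), Ero1b (9.43 and 8.73), Canx (10.09 and 9.83) and Pan2 (6.93 and 7.08). Ptgdr2 (4.60) and Tdrd9 (4.11) reached the floor in CD8+ DCs and lay below it in CD8- DCs. The match of Creld2 at chr15:88819520-88819538 also lies in the window of its divergent neighbour Alg12, which stood at 5.70 and 5.57.

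The probe set that names Sec61g together with 2 other symbols had signals of 10.35 in CD8+ and 9.87 in CD8- DCs. The 2 probe sets that name Srp54a with Srp54b and Srp54c stood at 8.92 and 9.13, and at 8.66 and 8.89. These values belong to no single gene.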
